A study of Mus musculus with 4 samples.

Results

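*Cpa6* (ENSMUSG00000042501) encodes carboxypeptidase A6. It was followed as 1 gene of 32288 features in each of 4 single-cell libraries of mouse hindlimbs at E14.5 (embryonic day). It was picked by its symbol, because earlier results of these data had put it among the genes higher in Pan-Cart-p21MOE proliferative chondrocytes and among the leading genes of the hypertrophic cluster. Its levels across clusters and its difference between Pan-Cart-p21MOE and control (Ctl) cells are therefore given as a description, with no test. Of 2768 cells kept, 426 had at least 1 unique molecular identifier (UMI) of *Cpa6*, and 266 of those were among the 751 chondrocytes.

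Pan-Cart-p21MOE embryos express the cell-cycle inhibitor p21 from the *Tigre* TRE-p21 allele when the *Col2a1-rtTA* transgene, driven by a cartilage promoter, meets doxycycline, so that expression is limited to cells that use that promoter. Ctl embryos lacked *Col2a1-rtTA*. Both kinds carried *Gli1-CreER*, a tdTomato (tdT) reporter and TRE-p21, and their dams received doxycycline (1 mg/ml) from E12.5 and tamoxifen (120 µg per g) at E13.5. Sorted tdT+ cells (S1, S3) and tdT− cells (S2, S4) came from collection 1 (S1, S2) and collection 2 (S3, S4). Each library mixed cells of both conditions, told apart here by sex: Pan-Cart-p21MOE cells were male in collection 1 and female in collection 2, and Ctl cells were the opposite sex. Cells were summed by library and condition into 8 pseudobulks. Each condition so had 2 pools of embryos, and each pool gave a tdT+ and a tdT− pseudobulk, while the study's methods name a single Pan-Cart-p21MOE female. Spread between pseudobulks covers that few pools.

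Carboxypeptidases of the M14 family are zinc enzymes that cut amino acids one at a time from the C-terminus of peptides. CPA6 prefers large hydrophobic residues, is secreted as a proenzyme, and is held in the extracellular matrix, and it has been studied mostly in the nervous system. In the growth cartilage, resting chondrocytes give rise to proliferative ones, which stop dividing, switch on *Ihh* (the Indian hedgehog ligand) and then *Col10a1* (type X collagen) and become hypertrophic. The gene lies on chromosome 1 from 10324720 to 10719945 on the minus strand (GRCm38, GENCODE M21). Its coding transcript, *Cpa6-201*, has 11 exons and 1314 coding bases. The 4 genes annotated inside its span are 2 processed pseudogenes, 1 small nuclear RNA gene and 1 locus of unassigned type (TEC), and none of them is among the features counted.

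The 4 libraries held between 11945062 and 39435830 UMIs. Between 360 and 998 cells per library were kept, with median depths of 16417 to 27252 UMIs. Up to 12 barcodes were shared by 2 libraries, and at most 1 of a pair's shared barcodes was kept. WPRE, a 3′ element of the p21 transgene that is also part of the tdT reporter, checked the sex-based assignment. In chondrocytes it was at 947 to 1799 counts per 1000000 UMIs (CPM) in the Pan-Cart-p21MOE pseudobulks and at 57.4 to 607 CPM in Ctl. Its log2 fold change was 2.55 (SE 0.401, edgeR adjusted p = 0.0134, higher in 4 of 4 libraries). The call was lost at an adjusted p of 0.0512 with the library as a block. For *Cdkn1a*, the p21 gene, the fitted log2 value in all chondrocytes was 0.26 (SE 0.322, edgeR adjusted p = 0.842). It turned to -0.0790 without the Ctl cells of S1 and to -0.0237 when the 2 fractions of each pool were summed. In proliferative cells it was 0.72 (SE 0.328, edgeR adjusted p = 0.471), and 0.32 to 0.96 with 1 pseudobulk left out. The paper states that reads of the p21 transgene map mostly to WPRE, so *Cdkn1a* counts are a weak readout of it.

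Among the named classes *Cpa6* was highest in hypertrophic chondrocytes, followed by proliferative and resting chondrocytes, and 3 clusters without a name also stood above resting chondrocytes. The hypertrophic cluster (81 cells, led by *Col10a1*, *Spp1*, *Comp* and *Panx3*) held 1037 *Cpa6* UMIs, or 465 CPM. Proliferative chondrocytes (425 cells, with *C1qtnf3* and *Epyc* among the leaders of one of their 2 clusters) held 1592 UMIs, or 115 CPM. Resting chondrocytes (245 cells, led by *Hes5*, *Cytl1*, *Barx1* and *Gdf10*, with the stress genes *Hspa1a* and *Hspa1b* also among their leaders) held 132 UMIs, or 24.4 CPM. These 3 zones took 31.4%, 48.2% and 3.99% of the *Cpa6* UMIs of all cells kept, while they held 3.17%, 19.7% and 7.70% of all UMIs.

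The order of the zones was the same within pseudobulks, although the spread was wide. Over pseudobulks of at least 5 cells the level was 447 ± 311 CPM (SD, n = 5) in hypertrophic, 150 ± 146 CPM (SD, n = 8) in proliferative and 21.2 ± 10.2 CPM (SD, n = 8) in resting chondrocytes. Hypertrophic cells were above proliferative cells in 5 of 5 pseudobulks that held both, and proliferative cells were above resting cells in 8 of 8. The ranges of the first 2 zones overlapped across pseudobulks, from 135 to 945 CPM against 31.2 to 493 CPM. Resting chondrocytes reached 36.9 CPM at most, which overlapped the lowest proliferative pseudobulk. Within the proliferative zone, the cluster led by *Neat1*, *C1qtnf3* and *Epyc* (138 cells, 143 CPM) was above the cluster led by *Sorbs2os* and *Lrp1b* (287 cells, 89.6 CPM) in 6 of 7 pseudobulks. The order did not hold for every cluster at a finer resolution of 2. There, a proliferative cluster of 87 cells with *Epyc* and *Matn1* among its leaders stood at 13.3 CPM. The resting clusters of that run stood at 16.8 and 10.5 CPM, and its other proliferative clusters at 133 and 155 CPM.

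**Figure D1:**
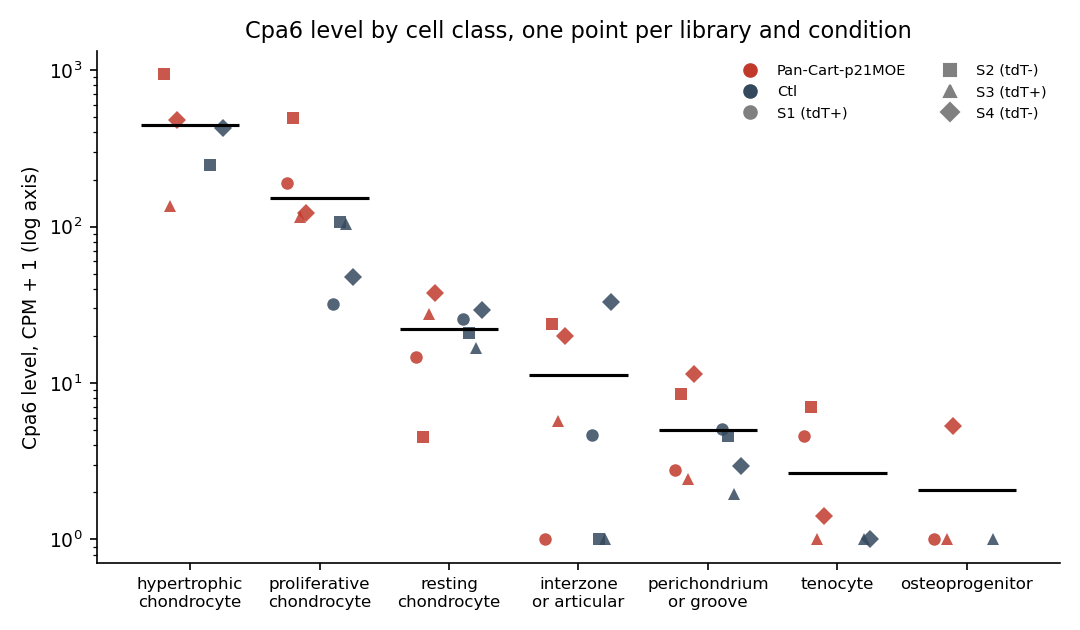
*Cpa6* level (CPM + 1, log axis) in 7 cell classes, with 1 point for each library and condition that held at least 5 cells of the class and a line at the mean of the points. Points fall from hypertrophic (mean 447 CPM) through proliferative (150 CPM) to resting chondrocytes (21.2 CPM), and several points of the other classes sit at 0 CPM.

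In the named classes outside cartilage the pooled level was low. Barcodes with fewer than 1000 UMIs, which hold mostly free RNA or damaged cells, had 6.07 to 12.8 CPM of *Cpa6* in the 4 libraries. Interzone or articular cells, the future joint lining, had 10.3 CPM (35 UMIs in 150 cells). The level was 2.99 CPM in perichondrium or groove cells (462 cells), 1.03 CPM in tenocytes (160 cells) and 0.598 CPM in osteoprogenitors (72 cells). Muscle cells had 0 of 830023 UMIs, which allows up to 3.61 CPM. These pooled values are below or within the range of the low-UMI barcodes. That range is no detection floor for the deeper cells kept. Whether these classes express *Cpa6* at a low level was not tested. Single pseudobulks of interzone cells were higher, at 22.8 CPM in the Pan-Cart-p21MOE cells of S2 (4 UMIs). In S4 they were at 18.9 and 31.8 CPM in the Pan-Cart-p21MOE and Ctl cells (19 and 7 UMIs). The low-UMI barcodes of S2 and S4 stood at 6.07 and 12.8 CPM. The interzone reading also depended on the clustering. At a resolution of 2, clusters named interzone or articular stood at 73.4 CPM (53 cells), 9.50 CPM (127 cells) and 0 CPM (64 cells). The share of cells with a *Cpa6* UMI was 77.8% in hypertrophic cells at a median depth of 14658 UMIs, 37.6% in proliferative cells at 28021 UMIs, 17.6% in resting cells at 21772 UMIs and 2.5% in tenocytes at 27987 UMIs. After thinning each cell to 5000 UMIs, the mean share over pseudobulks was 49.4%, 23.4%, 7.70% and 1.53% in the same order.

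Cells without a class name held most of the remaining signal. A cluster led by *Tmeff2*, *Akap12*, *Dcn* and *Osr1* had 255 *Cpa6* UMIs in 166 cells (50.1 CPM). Only 21 of those cells had any, 77 UMIs came from 1 cell, and the median over its 7 pseudobulks was 0 CPM. A cluster of 23 cells, all from S4, stood at 103 CPM (33 UMIs), and a cluster of 35 cells, 94.3% of them from S4, stood at 45.1 CPM (17 UMIs).

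The hypertrophic cluster was checked against its markers before its level was read. Of 8 hypertrophic markers, 7 were at least 1.5 times as high in it as in the other cells kept, and 1 was at 0. All 5 endothelial markers were also raised, with a summed level of 397 CPM against 88.1 CPM elsewhere, and *Cdh5* and *Plvap* were among its leading genes. Clustering at a resolution of 2 split off 13 endothelial cells, which had 4 *Cpa6* UMIs (10.7 CPM). The 68 cells left had 1033 *Cpa6* UMIs (556 CPM), so that the signal lay in the cells with *Col10a1* at 673 CPM.

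*Cpa6* UMIs were concentrated in few cells. Among the 751 chondrocytes, 29 cells with at least 20 *Cpa6* UMIs carried 61.1% of all *Cpa6* UMIs, and the highest cell had 191. The 5% of chondrocytes with most *Cpa6* (38 cells) held 66.7% of its UMIs. The same share was 75.4% for *Ihh*, 93.4% for *Col10a1* and 25.2% for *Matn1*, a matrilin of proliferating cartilage, and its median over 11493 genes with at least 100 UMIs was 32.3%. Of the 29 cells, 69.0% had an *Ihh* UMI, 41.4% a *Col10a1* UMI and 65.5% a UMI of *Panx3*, a channel protein of prehypertrophic cells, at a median depth of 57149 UMIs. In the 485 chondrocytes with no *Cpa6* UMI these shares were 11.8%, 7.01% and 14.02%, at a median depth of 22912 UMIs. The 2 groups of cells thus also differed in depth.

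The level of *Cpa6* was higher with detection of *Ihh* and *Col10a1* in the same cell. In all chondrocytes it was 472 CPM in the 54 cells with both transcripts (95% exact Poisson interval 446 to 501, which covers counting error only), 135 CPM in the 92 cells with only *Ihh*, 117 CPM in the 55 cells with only *Col10a1* and 65.9 CPM in the 550 cells with neither. Thinned to 5000 UMIs per cell, 56.9% of the cells with both had a *Cpa6* UMI, against 15.6% of the cells with neither. In proliferative chondrocytes the 15 cells with both stood at 312 CPM, but without the cell richest in *Cpa6* they stood at 181 CPM. The 319 proliferative cells with neither transcript still had 770 *Cpa6* UMIs (88.5 CPM), of the 1592 of that zone. In Ctl proliferative cells the level was 51.6 CPM with neither, 87.2 CPM with only *Ihh*, 43.0 CPM with only *Col10a1* and 108 CPM with both (2 cells). Without the richest cell of each group these were 43.8, 50.9, 22.3 and 12.6 CPM. Resting cells showed no such rise, at 26.1 CPM with neither, 7.49 CPM with only *Ihh* and 24.1 CPM with only *Col10a1*.

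Across single chondrocytes of at least 5000 UMIs, Spearman correlations of *Cpa6* were 0.31 with *Ihh*, 0.25 with *Col10a1* and 0.29 with *Panx3* in 454 Pan-Cart-p21MOE cells, and 0.28, 0.35 and 0.29 in 260 Ctl cells. They are descriptions over cells that share libraries and pool the zones, and *Cpa6* per UMI was itself correlated with depth, at 0.15 and 0.06. Within proliferative cells the same correlations were 0.19, 0.15 and 0.11 in 274 Pan-Cart-p21MOE cells and 0.16, 0.06 and 0.06 in 142 Ctl cells. Within hypertrophic cells they were 0.31, 0.39 and 0.56 (41 Pan-Cart-p21MOE cells) and 0.11, 0.29 and 0.46 (24 Ctl cells). In the 13 hypertrophic cells with neither *Ihh* nor *Col10a1*, *Cpa6* was at 32.0 CPM (8 UMIs), against 587 CPM in the 38 hypertrophic cells with both.

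**Figure D2:**
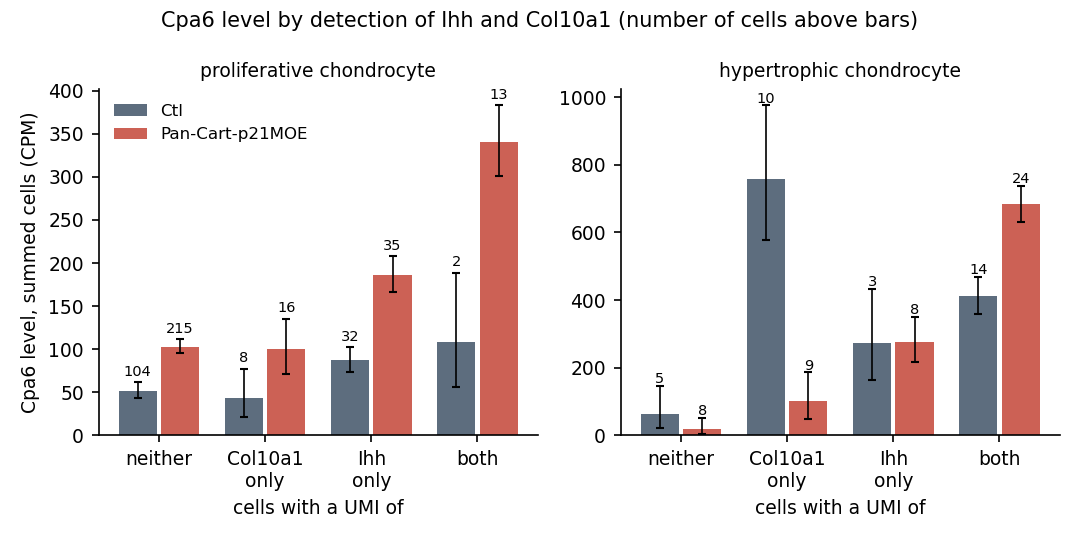
*Cpa6* level (CPM of summed cells) in proliferative and hypertrophic chondrocytes split by detection of *Ihh* and *Col10a1* UMIs, for Ctl and Pan-Cart-p21MOE cells; bars start at 0, lines are 95% exact Poisson intervals for counting error, and the number of cells stands above each bar. In proliferative cells the bar for cells with neither transcript is at 51.6 CPM in Ctl and 103 CPM in Pan-Cart-p21MOE, and the cells with both reach 340 CPM in Pan-Cart-p21MOE.

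In proliferative chondrocytes *Cpa6* was higher in Pan-Cart-p21MOE cells than in Ctl cells of the same library in 4 of 4 libraries. It stood at 188 CPM against 31.2 CPM in S1, 493 CPM against 107 CPM in S2, 114 CPM against 103 CPM in S3 and 121 CPM against 46.9 CPM in S4. The 4 Pan-Cart-p21MOE values were all above the 4 Ctl values, although the gap was small, from 107 to 114 CPM. The means were 229 ± 179 and 72.1 ± 38.7 CPM (SD, n = 4 each), a ratio of 3.18. Across all 9180 genes tested in this zone, 3.16% were higher in Pan-Cart-p21MOE with no overlap and 10.5% were higher in 4 of 4 libraries. These shares are given as the background only, since this contrast led to the choice of the gene.

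The size of the difference was not even between collections. The ratio was 6.02 and 4.61 in S1 and S2 of collection 1, and 1.10 and 2.57 in S3 and S4 of collection 2. The sex of the Pan-Cart-p21MOE cells also changed with the collection, so that sex, embryo pool and collection cannot be told apart in this contrast of ratios. In S2 the Pan-Cart-p21MOE group had 10 cells, and 1 of them gave 137 of its 180 *Cpa6* UMIs. Without the richest cell of each pseudobulk, the means were 124 ± 33.1 against 40.6 ± 23.9 CPM (SD, n = 4 each), a ratio of 3.07, again with no overlap and higher in 4 of 4 libraries. The share of cells with a *Cpa6* UMI, thinned to 5000 UMIs, was 30.4 ± 9.89% against 16.5 ± 6.04% (SD, n = 4 each), also higher in 4 of 4 libraries, with overlapping groups. Both measures were added after the data were seen.

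Proliferative cells were also split by detection of *Ihh* and *Col10a1*. Among cells with neither an *Ihh* nor a *Col10a1* UMI, *Cpa6* was 120 ± 55.7 CPM in Pan-Cart-p21MOE and 46.2 ± 29.7 CPM in Ctl (SD, n = 4 each), higher in 4 of 4 libraries, with a ratio of 2.59. The Pan-Cart-p21MOE values of S1 to S4 were 203, 94.0 (7 cells), 90.5 and 90.7 CPM, and the Ctl values 14.02, 83.1, 33.1 and 54.7 CPM, so that the gap in S2 was small. A cell with 0 UMIs of these 2 genes may still express them or others of the hypertrophic program. In the cluster led by *Sorbs2os* and *Lrp1b* alone the levels were 109 ± 23.6 and 48.9 ± 26.1 CPM (SD, n = 4 each), with no overlap. The share of all genes with no overlap was not computed for this cluster. Its ratios in S1 to S4 were 10.5, 1.32, 2.37 and 1.39, and the Pan-Cart-p21MOE value of S2 rested on 7 cells with 19 *Cpa6* UMIs. As a mean over single cells its groups overlapped, with Pan-Cart-p21MOE higher in 3 of 4 libraries (ratio 0.924 in S2). In the cluster led by *Neat1*, *C1qtnf3* and *Epyc* the levels were 176 ± 68.1 CPM (SD, n = 3) and 99.7 ± 69.2 CPM (SD, n = 4), higher in 2 of 3 libraries.

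Resting chondrocytes did not show the same direction in every library, and in hypertrophic chondrocytes the direction depended on the measure. In resting cells *Cpa6* was at 13.8, 3.53, 26.5 and 36.9 CPM in Pan-Cart-p21MOE and at 24.7, 20.0, 15.8 and 28.1 CPM in Ctl cells of S1 to S4. The means were 20.2 ± 14.6 and 22.2 ± 5.38 CPM (SD, n = 4 each), and Pan-Cart-p21MOE was higher in 2 of 4 libraries. Without the richest cell of each pseudobulk the direction of the means turned, to 12.9 ± 12.54 and 8.19 ± 7.65 CPM (SD, n = 4 each), higher in 3 of 4 libraries. In hypertrophic cells the Pan-Cart-p21MOE values were 945, 135 and 480 CPM in S2, S3 and S4, from 6, 10 and 31 cells. The Ctl values were 245 CPM in S2 and 429 CPM in S4, from 13 and 18 cells, so that both libraries with the 2 conditions were higher in Pan-Cart-p21MOE. S1 held 2 hypertrophic Pan-Cart-p21MOE cells and 0 Ctl cells, and S3 held 1 Ctl cell. Without the richest cell of each pseudobulk the hypertrophic means were 221 ± 121 CPM (SD, n = 3) and 257 ± 39.0 CPM (SD, n = 2), and the thinned shares of cells were 44.7% and 56.5%, so that the direction in this zone turned with the measure.

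Over all chondrocytes *Cpa6* was at 229, 331, 91.8 and 156 CPM in Pan-Cart-p21MOE and at 29.4, 81.1, 90.1 and 115 CPM in Ctl cells of S1 to S4, with a ratio of the means of 2.56. It was higher in 4 of 4 libraries, but the ratio in S3 was 1.02, and the groups overlapped. With each cell weighted equally the ratio of the means was 1.28, and Pan-Cart-p21MOE was higher in 3 of 4 libraries, with a ratio of 0.523 in S4. Of all genes tested, 4.03% were higher with no overlap. Hypertrophic cells made up 10.3% of Pan-Cart-p21MOE and 11.6% of Ctl chondrocytes, but the shares differed within libraries. They were 4.255%, 20%, 6.17% and 13.1% in Pan-Cart-p21MOE and 0%, 14.4%, 1.82% and 21.95% in Ctl cells of S1 to S4. In S1 the 2 hypertrophic Pan-Cart-p21MOE cells gave 195 of the 374 *Cpa6* UMIs of Pan-Cart-p21MOE chondrocytes. The part of zone make-up in the ratio was not tested. In cells of all other clusters the levels were 10.9 ± 11.7 and 6.50 ± 5.91 CPM (SD, n = 4 each), higher in 3 of 4 libraries.

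**Figure D3:**
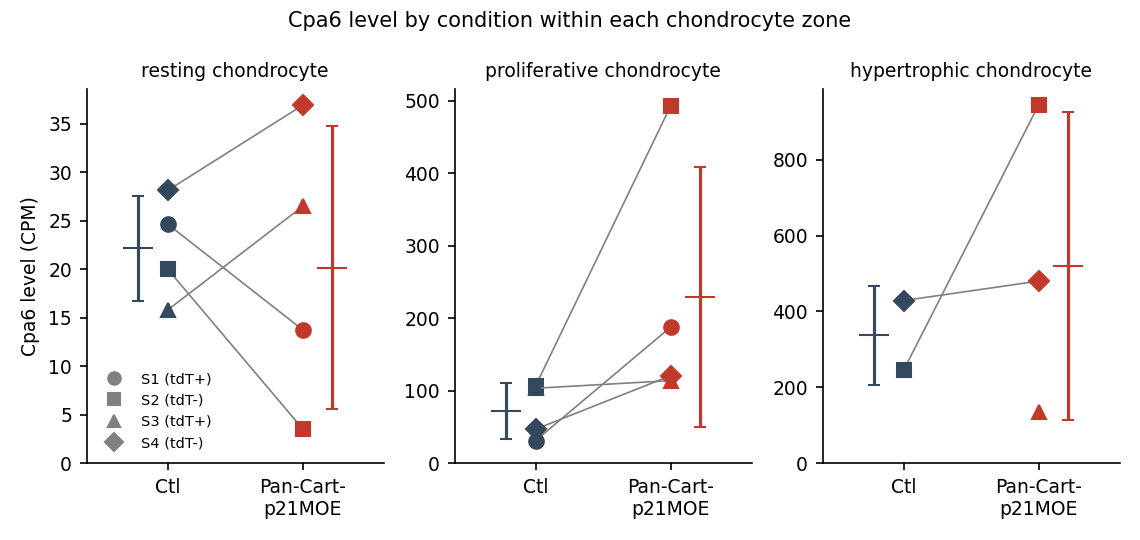
*Cpa6* level (CPM) of Ctl and Pan-Cart-p21MOE pseudobulks of at least 5 cells in the resting, proliferative and hypertrophic zones; each axis starts at 0 with its own scale, lines join the 2 conditions of a library, and side bars give mean ± SD. In proliferative cells all 4 lines go up, by 1.10 to 6.02 times, while 2 of the 4 resting lines go down.

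The relation of *Cpa6* to WPRE differed between zones. Over all Pan-Cart-p21MOE chondrocytes *Cpa6* was lower in each higher WPRE bin, at 322, 212, 143, 125 and 87.4 CPM from the cells with no WPRE UMI to those with more than 20 per 10000 UMIs. Hypertrophic Pan-Cart-p21MOE cells stood at 673 CPM (17 cells) and 839 CPM (14 cells) in the 2 lowest bins and at 129, 41.7 and 171 CPM in the others, which held 5 to 7 cells each. Resting Pan-Cart-p21MOE cells went the other way in the bins above 0, at 8.40, 11.6, 24.0 and 49.8 CPM (8, 5, 20 and 52 UMIs). Their 5 cells with no WPRE UMI stood at 44.3 CPM (2 UMIs). Proliferative cells showed neither order. In tdT− Pan-Cart-p21MOE proliferative cells, where WPRE comes mainly from the p21 transgene, *Cpa6* was at 70.9 CPM in the 15 cells with no WPRE UMI. It was at 157, 154 and 215 CPM in the 3 bins that followed and at 63.8 CPM in the 26 cells with more than 20 WPRE UMIs per 10000. In tdT+ cells, where the tdT reporter adds WPRE, the level was 53.9 CPM in the lowest bin above 0, 211 CPM in the next and 126 CPM in the highest. Without its richest cell, the tdT− bin at 215 CPM stood at 96.4 CPM. Spearman correlations between the 2 transcripts were -0.02 in 149 tdT− and 0.11 in 125 tdT+ Pan-Cart-p21MOE proliferative cells, and 0.01 in all 274. In Ctl cells of the zone the correlation was -0.05 (142 cells).

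**Figure D4:**
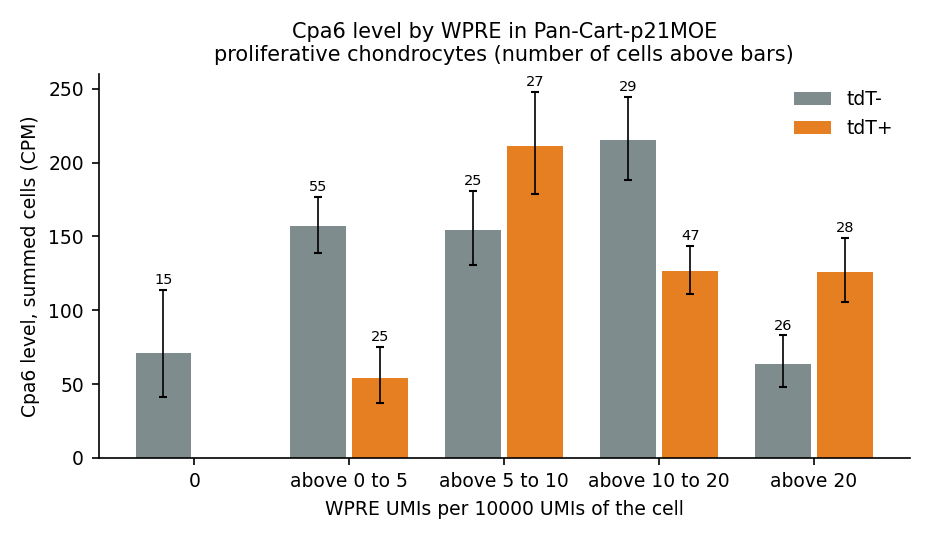
*Cpa6* level (CPM of summed cells) in Pan-Cart-p21MOE proliferative chondrocytes by WPRE UMIs per 10000 UMIs of the cell, for tdT− and tdT+ cells in bins of at least 5 cells; lines are 95% exact Poisson intervals for counting error and numbers of cells stand above the bars. The tdT− bars go up from 70.9 to 215 CPM and down again to 63.8 CPM in the bin above 20.

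The sorted fraction had no part in the choice of *Cpa6* and could be tested. Over all chondrocytes, tdT+ cells, which descend from cells with *Gli1* activity at the time of tamoxifen, had less *Cpa6* than tdT− cells of the same pool in 4 of 4 pools. The log2 fold change was -0.64 (SE 0.339), and it did not pass the edgeR quasi-likelihood test over 10840 genes (adjusted p = 1.00). In all, 3 of the 10840 genes were called (0.0277%, with 0.00923% higher and 0.0185% lower in tdT+), with 448 at an unadjusted p under 0.05: the reporter transcript tdt was higher in tdT+ cells, and *Ostn* (osteocrin, a secreted peptide) and *Tmsb4x* (thymosin beta 4) were lower. Hypertrophic cells made up 4.15% of tdT+ and 15.5% of tdT− chondrocytes; its part in the *Cpa6* value was not tested. In proliferative cells alone tdT+ was lower in 3 of 4 pools, and in resting cells in 2 of 4. With the embryo pool as a block the log2 fold change of *Cpa6* was -0.71 (adjusted p = 0.186, edgeR), and 8 genes were called. Without the Pan-Cart-p21MOE cells of S1, S2 or S4 or the Ctl cells of S2, the number called was 1, 7, 0 and 6.

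Whether the difference between conditions varied with the sorted fraction was tested as an interaction. For *Cpa6* the interaction was 0.08 on the log2 scale (SE 0.704, adjusted p = 1.00, edgeR), and 0 of 10840 genes were called (0%), with 257 at an unadjusted p under 0.05. Leaving out 1 pseudobulk at a time gave -0.66 to 1.18, so that neither the size nor the direction of the interaction was resolved.

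Relatives of *Cpa6* did not move with it beyond the test's threshold. Of 23 M14 carboxypeptidases and their inhibitors listed, 11 were tested between Pan-Cart-p21MOE and Ctl in all chondrocytes and 0 were called, against 0.895% of all 10840 genes (0.111% higher, 0.784% lower). Their median log2 fold change was 0.15, with that of all genes tested at 0.00. *Cpe*, carboxypeptidase E of prohormone processing, had a log2 fold change of 0.34 (adjusted p = 0.265) and *Cpxm1*, a family member without known catalytic activity, 0.47 (adjusted p = 0.213). *Agbl4*, which trims glutamates from proteins, had 1.02 (SE 0.223) and came nearest to the threshold, at an adjusted p of 0.0554 in edgeR. *Aebp1*, an inactive member that binds collagen, was at 0.15 and *Agbl3* at 0.02. Below 0 were *Rarres1*, listed with the carboxypeptidase inhibitors, at -0.78 (SE 0.299, adjusted p = 0.317, edgeR) and *Agtpbp1*, a tubulin deglutamylase, at -0.52 (SE 0.234, adjusted p = 0.409). At an unadjusted p under 0.05, 3 of the 11 were above and 2 below. In proliferative cells 10 were tested and 0 called, against 0.523% of 9180 genes (0.0763% higher, 0.447% lower), with 2 above and 1 below at an unadjusted p under 0.05. DESeq2 did call *Agbl4* in all chondrocytes (adjusted p = 0.00277), and so did edgeR once library was a block (adjusted p = 0.0386), without the filter (adjusted p = 2.64e-07), and without the Ctl cells of S1 or the Pan-Cart-p21MOE cells of S4 (adjusted p = 0.0488 and 0.0467). In proliferative cells *Agbl4* was at 1.06 (adjusted p = 0.179, edgeR) and was called without the filter (adjusted p = 3.85e-05).

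*Penk*, the enkephalin precursor and the only tested one of 3 listed sources of known CPA6 substrates, was at -0.55 on the log2 scale (SE 0.183, adjusted p = 0.228, edgeR) in all chondrocytes and -0.12 (SE 0.219, adjusted p = 0.913) in proliferative cells. Its level was lower in Pan-Cart-p21MOE chondrocytes in 4 of 4 libraries, at 37.0 to 61.2 CPM against 68.8 to 86.1 CPM, with no overlap between groups. In all chondrocytes 3.39% of genes were lower with no overlap.

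Genes of the hypertrophic program, which *Cpa6* followed across zones, were not called between conditions. Of 20 listed, 15 were tested in all chondrocytes and 0 called, against 0.895% of all 10840 genes. Their median log2 fold change was 0.06, with 0 above and 3 below at an unadjusted edgeR p under 0.05 (*Col10a1*, *Comp* and *Spp1*). In proliferative cells 12 were tested and 0 called, against 0.523% of 9180 genes, with a median of -0.00. At those shares, 0 calls in lists of this size do not set these genes apart from the rest. *Col10a1* was at -1.65 on the log2 scale (SE 0.654, adjusted p = 0.334, edgeR) in all chondrocytes, and 0.0703 without the Ctl cells of S4, which had 303 CPM of it. *Ihh* was at -0.32 (SE 0.370, adjusted p = 0.826) in all chondrocytes, where it turned to 0.28 without those cells, and at -0.62 (SE 0.357, adjusted p = 0.613) in proliferative cells. *Comp*, a cartilage matrix protein, was at -0.60 (adjusted p = 0.341), *Mef2c*, a transcription factor of hypertrophy, at 0.22 (adjusted p = 0.718) and *Sgms2*, a sphingomyelin synthase, at 0.36 (adjusted p = 0.498) in all chondrocytes. *Spp1*, the secreted matrix protein osteopontin, was at -1.48 (SE 0.633, adjusted p = 0.383, edgeR). Without the filter on low counts, edgeR called *Comp* in both comparisons (adjusted p = 0.000171 and 5.52e-06) and *Col10a1* in all chondrocytes (adjusted p = 1.16e-13). For *Cpa6* the fitted log2 fold change, given without a test, was 1.26 (SE 0.341) in all chondrocytes and 1.53 (SE 0.447) in proliferative cells.

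Of 15 resting and proliferative genes, all were tested in all chondrocytes and 1 was called, *Matn3*, a matrilin of the cartilage matrix. It stood at 96.4 to 145 CPM in Pan-Cart-p21MOE and at 233 to 371 CPM in Ctl, with no overlap, and fell by 1.30 on the log2 scale (SE 0.140, edgeR adjusted p = 0.00167, lower in 4 of 4 libraries). In proliferative cells, where 3.21% of genes were lower with no overlap, 12 were tested and *Matn3* was again the 1 called, falling by 1.46 (SE 0.149, edgeR adjusted p = 0.000565, lower in 4 of 4 libraries). *Matn1* had a log2 fold change of -0.38 in all chondrocytes (adjusted p = 0.0673, which DESeq2 put at 0.0157 and the library block at 0.0216) and *Col9a1*, a type IX collagen chain, -0.08 (adjusted p = 0.739).

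On chromosome 1 around *Cpa6*, 1 gene was called. Within 10 Mb, 35 other genes were tested in proliferative cells, 21 of them above 0 (60.0%, against 50.4% of all genes tested) and 14 below. Their median log2 fold change was 0.11, against 0.00 for all genes tested. The nearest tested gene at lower coordinates, *Arfgef1* (92.0 kb away), was at -0.14 (SE 0.151, adjusted p = 0.832, edgeR), and the nearest at higher coordinates, *Prex2* (273.5 kb away), was at -0.98 (SE 0.376, adjusted p = 0.364). In all chondrocytes *Prex2* was at -0.67 (adjusted p = 0.523, edgeR), but at -1.51 (adjusted p = 0.0345) without the Pan-Cart-p21MOE cells of S4, and it was called in both comparisons without the filter on low counts (adjusted p = 0.0272 and 0.00256). None of the 10 nearest tested genes, 5 on each side, was called in either comparison. Of all genes tested, 0.523% were called in proliferative cells and 0.895% in all chondrocytes. The lack of a call among 10 genes thus does not set them apart from the rest. The 1 gene called within 10 Mb was *Gm16070*, 6956082 bases away at 17676027 to 17727646, which rose by 1.17 on the log2 scale (SE 0.212, edgeR adjusted p = 0.0282). It rose by 1.00 in all chondrocytes (SE 0.183, edgeR adjusted p = 0.0240), where it was the 1 called of 37 within 10 Mb, and it lost its call when single pseudobulks were left out, with adjusted p up to 0.115 and 0.121 in the 2 comparisons.

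**Figure D5:**
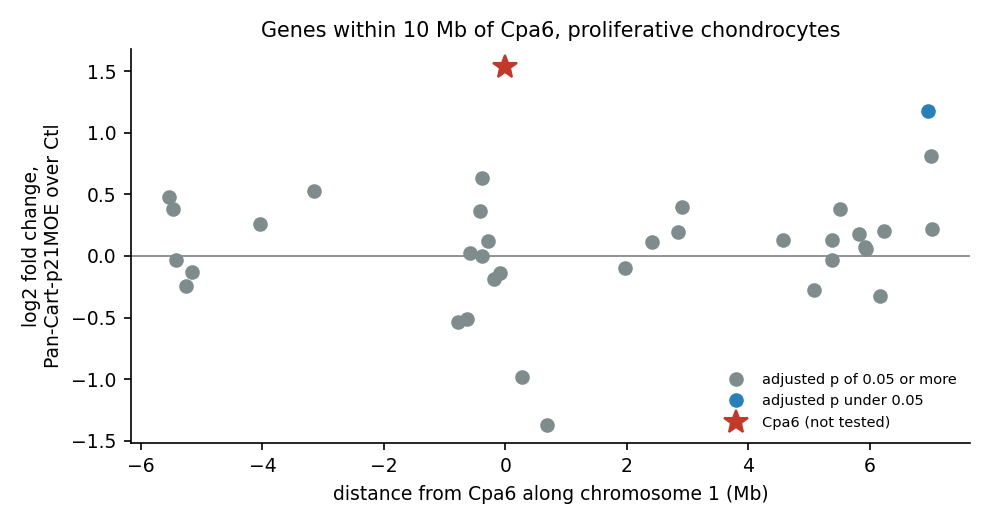
Fitted log2 fold change of Pan-Cart-p21MOE over Ctl in proliferative chondrocytes for 35 genes tested within 10 Mb of *Cpa6*, against distance from *Cpa6* along chromosome 1 (Mb). *Cpa6* itself (star, not tested) is at 1.53, the nearest tested genes on each side are below 0, and the 1 called gene, *Gm16070*, lies 6956082 bases away.

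Genes whose levels were most like *Cpa6* were found over 46 pseudobulks of a cluster in a library with at least 20 cells, from 20 clusters, of which 1 was hypertrophic and 6 were proliferative. Among 13875 genes, the highest Pearson correlations of log2(CPM + 10) were those of *Colgalt2*, a collagen galactosyltransferase (0.78), *Neat1*, a nuclear long noncoding RNA (0.77), and *Fam129b* (0.77). *Scin*, which severs actin filaments (0.77), *Trmt9b* (0.77), *Gm26633* (0.77), *Slpi*, a secreted protease inhibitor (0.75), *B4galnt3*, a glycosyltransferase (0.75), *Klf3*, a transcription factor (0.74), and *Pam*, which amidates the C-terminus of secreted peptides (0.74), followed. The 46 points share libraries and clusters and differ in depth, and no test was made. *Scin* averaged 114 CPM in the hypertrophic point, 63.5 CPM in the proliferative, 14.2 CPM in the resting and 8.07 CPM in all other points. *Neat1* averaged 555, 386, 76.4 and 53.6 CPM in the same order. Not all of these genes were highest in the hypertrophic point. It was below the proliferative mean for *Colgalt2* (56.2 against 71.5 CPM), *Slpi* (81.3 against 100 CPM) and *B4galnt3* (16.9 against 21.1 CPM). For the remaining genes of the list it was above that mean.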

How the data were processed

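Single-cell RNA-seq (10x) was made from sorted tdT+ and tdT− hindlimb cells in 2 collections, 1 library each. The authors aligned reads with Cell Ranger 7.2.0 to GRCm38 with the transgenes added and deposited raw UMI counts per gene and barcode; whether intronic reads were counted is not given in the sources used here, and reads of near-identical or overlapping genes may have been shared out by that step.

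Barcodes with at least 1000 UMIs, at least 500 genes and at most 10% mitochondrial UMIs passed. Each was assigned to a sex by Xist or 4 Y-linked genes (at least 2 UMIs, a share of at least 0.8), and thereby to a condition as the study's methods state. Barcodes with no sex call (178 to 2747 per library) or of mixed sex (40 to 132) were left out. Scrublet called 0 to 3 doublets per library and so did not work, and the 5% highest scores were removed instead. Cells were clustered in scanpy 1.11.5 (2000 variable genes without *Cpa6*, 30 components, Leiden resolution 1) and clusters were named from marker lists.

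UMIs were summed by library and condition within a class, and levels are CPM of those sums. Intervals and floors of 3 UMIs cover counting error only. Tests used edgeR 4.0.16 (quasi-likelihood, TMM, filterByExpr, Benjamini-Hochberg adjustment over all genes tested, threshold 0.05) on these counts, with the fraction or condition as covariate, and were tested on simulated data. Pseudobulks of 1 library share a droplet run, and 2 fractions share an embryo pool, so that p-values over 8 pseudobulks rest on 2 pools per condition. After centring on fraction, same-pool pseudobulks deviated together (r = 0.109 to 0.418). They also share their condition, so these values cannot tell pool from condition. After centring on condition, pseudobulks of 1 library did not deviate together (r = -0.0584 to 0.0597).

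*Cpa6* and the gene lists were chosen with earlier results of these data known. Named genes were *Cpa6*, the transgene check (WPRE, *Cdkn1a*), *Ihh* and *Col10a1*, listed genes, the 5 nearest tested genes on each side, called genes, and the 10 genes most like *Cpa6*. DESeq2 1.42.0, other filters, blocks and left-out pseudobulks were tried as alternatives.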

Additional observations from a re-analysis of the deposited data

Results flagged for a closer look

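In 15 groups of 4 libraries looked at for 1 library far from the others, 2 held one, and chance gives about 1 in 20. *Cpa6* in interzone or articular cells was at 31.8 CPM in the Ctl cells of S4, the highest of 4. In the clusters that are not chondrocytes it was at 28.4 CPM in the Pan-Cart-p21MOE cells of S4, the highest of 4.

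In resting chondrocytes the ratio of Pan-Cart-p21MOE to Ctl was below 1 in both libraries of collection 1 (0.558 in S1 and 0.176 in S2) and above 1 in both libraries of collection 2 (1.68 in S3 and 1.31 in S4). The difference was not tested.

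Barcodes outside the comparisons also held *Cpa6*. The barcodes of S2 removed for high Scrublet scores stood at 80.3 CPM, with the Ctl cells of S2 at 34.0 CPM and the Pan-Cart-p21MOE cells at 101 CPM. The 132 barcodes of mixed sex in S4 stood at 108 CPM, with the Ctl cells of S4 at 58.8 CPM and the Pan-Cart-p21MOE cells at 72.5 CPM.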

How the results depend on the processing

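The log2 ratio of mean *Cpa6* levels, Pan-Cart-p21MOE over Ctl, stayed above 0 in proliferative cells (0.97 to 1.92) and in all chondrocytes (1.01 to 1.598) whichever pseudobulk was left out, but fell to 0.35 in all chondrocytes as a mean over single cells. It ranged from -0.60 to 0.22 in resting cells, and was 0.66 there without the richest cells, and from -0.13 to 1.08 in hypertrophic cells, where the mean over single cells gave -0.90. Hypertrophic over proliferative was 1.42 to 1.75, but -2.69 in cells with neither *Ihh* nor *Col10a1*, an alternative added after the data were seen. The minimum of 5 cells left the hypertrophic side with only the 7 Pan-Cart-p21MOE cells of S4 (2 *Cpa6* UMIs, 12.8 CPM).

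For tdT+ against tdT−, 13 genes were called by DESeq2, 166 without the filter, 8 with the pool block and 0 to 7 with 1 pseudobulk left out; *Cpa6* was at -0.98 to -0.38 in the last, and at -0.64 without the filter, where its adjusted p was 0.000595. For the interaction the numbers were 2, 36 and 0 to 3, and 1 at 3000 UMIs per barcode, with *Cpa6* at -0.66 to 1.18; values below 0 came without either S1 pseudobulk (-0.66, -0.50) or either S4 pseudobulk (-0.42, -0.22). Between conditions, all chondrocytes gave 192 with DESeq2, 519 without the filter, 63 with top Scrublet scores kept, 30 with pools summed and 16 to 100 with 1 pseudobulk left out, the fewest without the Pan-Cart-p21MOE cells of S3. Proliferative cells gave 118, 361, 31 with the library as a replicate block, and 9 to 58, the fewest without the Pan-Cart-p21MOE cells of S4. The cause was not tested.

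Directions turned on leaving out 1 pseudobulk for *Agbl3* (-0.11 to 0.19 in all chondrocytes, -0.16 to 0.28 in proliferative cells), *Aebp1* (-0.00717 to 0.25, -0.0454 to 0.29), *Cdkn1a* (-0.0790 to 0.62), *Ihh* (-0.57 to 0.28) and *Col10a1* (-2.21 to 0.0703) in all chondrocytes, and *Mef2c* in proliferative cells (-0.0271 to 0.54). Summing pools put *Cdkn1a* at -0.0237. *Matn3* passed under every alternative run, with adjusted p of 0.00277 to 0.0170 and 0.000986 to 0.00663 when 1 pseudobulk was left out. WPRE in proliferative cells reached 0.0550.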
